A study of Mus musculus with 26 samples.

Results

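The respiratory chain genes described here are the subunits of complexes I to V that the nucleus encodes, chosen by gene name: the Nduf genes of complex I (assembly factors left out), Sdha to Sdhd of complex II, the Uqcr genes of complex III, Cox4 to Cox8 of complex IV and the Atp5 genes of complex V. By this rule 85 of the 23107 genes of the deposited table were members: 37 in complex I, 4 in complex II, 8 in complex III, 19 in complex IV and 17 in complex V. The rule uses names alone, so it also takes in Cox4nb (Emc8), Atp5s (Dmac2l) and Atp5sl (Dmac2), which are not subunits of the enzymes, and it places Ndufa4, now assigned to cytochrome c oxidase, with complex I. Of the members, 83 passed the filter on low counts, and Cox8b and Cox8c, heart- and testis-type subunits, did not.

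Complexes I and II feed electrons from NADH and succinate into ubiquinone, complex III passes them to cytochrome c, and complex IV hands them to oxygen. Complexes I, III and IV pump protons as they do so, and complex V, the ATP synthase, uses the return flow to make ATP. Complex II is the only one of them whose subunits are all encoded in the nucleus, and it is also an enzyme of the tricarboxylic acid cycle. Neurons depend on this chain for most of their ATP.

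The study asked, by its design text, which transcripts are enriched in GnRH neurons, the hypothalamic cells that release gonadotropin-releasing hormone, in mice of both sexes with and without gonads. All mice carried a GnRH-Cre allele and a floxed-stop L10a-GFP allele, so that cells expressing the Cre tag their ribosomes with GFP. Preoptic area punches of adult mice (55 to 165 days) were pooled, 5 to 7 mice a pool, and each of 13 pools gave an immunoprecipitate (RNA on the tagged ribosomes) and a supernatant (what stayed behind, depleted of GnRH neurons). There were 3 pools of intact females in diestrus, 3 of ovariectomized females, 4 of intact males and 3 of orchidectomized males, which makes 8 groups and 26 libraries of 27217252 to 56668581 counts each. Every ovariectomized pool held 7 mice and every orchidectomized pool 5, while intact pools held 5 to 7. Levels are given as CPM, counts scaled to a common normalised library size, and enrichment is the log2 fold change of immunoprecipitate over supernatant. A gene was called at an adjusted p under 0.05 in edgeR's quasi-likelihood test over all genes tested. In such bulk RNA, fewer cells of a type and less RNA per cell cannot be told apart.

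The libraries fell into separate sets before any member was looked at. The labels number them; 8 libraries, from 2 pools of intact females and 2 of intact males, are numbered 1 to 10, and the other 18 are numbered 11 to 30, which hold all gonadectomized pools. Gnrh1 ran from 16896 to 20931 CPM in the immunoprecipitates numbered 1 to 10 and from 3174 to 8774 CPM in the later ones, and it was higher in the immunoprecipitate in 13 of 13 pools. Of the 10 oligodendrocyte markers, 10 were lower in the immunoprecipitates over all conditions, as were 8 of 10 astrocyte and 6 of 10 microglial markers, where 21.6% of all genes tested were lower. Of 10 endothelial and mural markers 4 were higher (Abcb1a, log2 1.97; Cldn5, 1.34; Flt1, 1.19; Slco1a4, 1.18) and Rgs5 was lower (log2 -0.88), and of 10 pan-neuronal markers Stmn2 was higher (log2 0.65) and Snap25, Syt1, Rbfox3, Mtap2 and Thy1 were lower (log2 -0.17 to -1.06). Summed endothelial and mural markers ran from 18 to 48 CPM in immunoprecipitates numbered 1 to 10, from 19 to 287 CPM in the later ones and from 20.4 to 45.9 CPM in supernatants. Summed astrocyte markers reached 2197 CPM in an immunoprecipitate of orchidectomized males (replicate 0), against 396 to 479 CPM in those numbered 1 to 10. Summed blood markers reached 2982 CPM in a supernatant of intact males (replicate 3), and a supernatant of intact females (replicate 2) held 1579 CPM of Gnrh1, where the other supernatants held 47.5 to 454 CPM. Their part in the results was not tested beyond leaving those 3 libraries out.

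Sequence before the start of 4 members is shown because it sets members that rose in the immunoprecipitate beside one that did not, with the letters of factors known to regulate respiratory genes in capitals. Promoter windows of 300 bases (250 before to 50 after the start) from RefSeq, build GRCm38.p6, were matched for 69 of the 85 members. They were searched on both strands, counting overlapping matches, for the NRF1 letters (GCGC, any base, then TGCGC), CCGGAAGT (ETS factors such as GABP), AAGATGGCG (YY1) and TNAAGGTCA (ERR alpha). NRF1 letters occurred in 16 members, 23.2%, against 4.78% of 27025 gene promoters; YY1 letters in 7 members, 10.1% against 1.49%; ETS letters in 5, 7.25% against 4%; and ERR alpha letters in 3, 4.35% against 1.26%. Only bases free of annotated exons are printed, from chr16:37654454-37654618 (Ndufb4, minus strand), chr10:80406831-80407071 (Uqcr11, minus strand), chr9:44920752-44920992 (Atp5l, minus strand) and chr10:128083057-128083272 (Atp5b, plus strand), each 5′ to 3′.
Ndufb4: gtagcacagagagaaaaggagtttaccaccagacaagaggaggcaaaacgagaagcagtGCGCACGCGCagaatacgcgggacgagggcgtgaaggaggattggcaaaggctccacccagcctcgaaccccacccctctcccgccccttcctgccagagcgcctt
Uqcr11: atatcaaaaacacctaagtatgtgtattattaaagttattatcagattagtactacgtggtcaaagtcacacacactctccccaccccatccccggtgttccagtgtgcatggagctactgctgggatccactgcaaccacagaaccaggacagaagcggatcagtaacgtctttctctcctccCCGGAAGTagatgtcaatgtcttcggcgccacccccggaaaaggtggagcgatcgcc
Atp5l: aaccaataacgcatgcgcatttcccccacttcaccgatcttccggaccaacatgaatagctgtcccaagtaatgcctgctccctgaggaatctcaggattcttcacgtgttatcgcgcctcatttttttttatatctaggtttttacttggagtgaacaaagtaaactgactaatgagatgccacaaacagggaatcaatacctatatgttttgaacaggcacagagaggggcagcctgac
Atp5b: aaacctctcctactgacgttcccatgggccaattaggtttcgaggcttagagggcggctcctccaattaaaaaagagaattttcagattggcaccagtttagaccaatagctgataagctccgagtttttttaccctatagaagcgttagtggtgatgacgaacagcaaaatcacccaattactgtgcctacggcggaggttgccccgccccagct
The stretch of Ndufb4 holds the NRF1 letters (on the other strand) and that of Uqcr11 the ETS letters, and the whole window of Ndufb4 also holds ERR alpha letters. Neither Atp5l, the most enriched member of complex V, nor Atp5b, the least, holds an exact match to any of the 4 motifs in its window. Near matches were not counted. Among members matched and tested, 11 of 16 with the NRF1 letters and 39 of 52 without them were called higher in the immunoprecipitate, with median log2 fold changes of 0.39 and 0.39.

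Over all conditions, 56 of the 83 tested members were higher in the immunoprecipitate than in the supernatant, 3 were lower, and 24 were not called, where 21.3% of the 16713 genes tested were higher and 21.6% were lower. The members' median log2 fold change was 0.37, beside -0.06 for all genes tested. Complex III had the highest median, 0.48, with 7 of 8 members higher, and complex II the lowest, 0.06, with 2 of 4. In complex I, 24 of 37 were higher and 1 was lower (median 0.32); in complex IV 11 of 17 were higher and 2 were lower (median 0.41); in complex V 12 of 17 were higher (median 0.38). The 3 members that were lower were Cox4i2, the lung-type subunit 4, Ndufa4l2, a hypoxia-induced relative of Ndufa4, and Cox4nb (log2 -0.18 ± 0.06 SE, adjusted p = 0.0125).

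**Figure D1:**
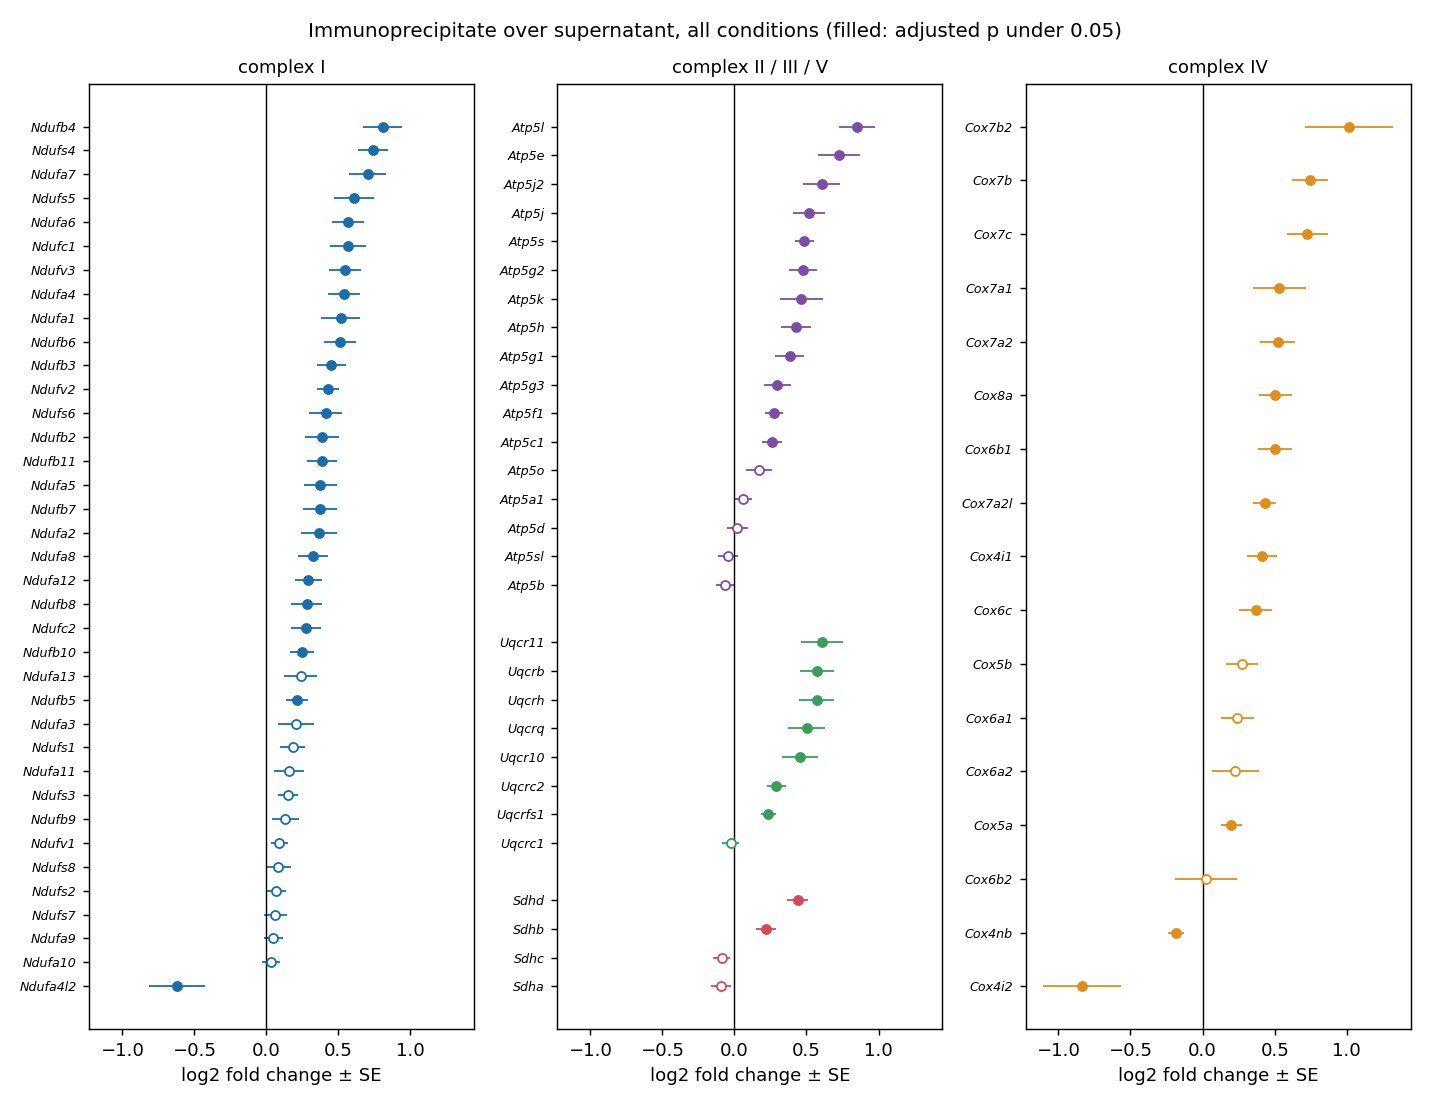
Log2 fold change of immunoprecipitate over supernatant for each of the 83 tested members, with its standard error, by complex (x axis, log2 scale); filled points have an adjusted p under 0.05. Most points lie to the right of 0 in complexes I, III, IV and V, and Sdha and Sdhc of complex II, Uqcrc1 of complex III and Atp5b of complex V lie at or just below 0.

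The size of this enrichment followed the library numbering. In the 4 pools numbered 1 to 10 the members' median log2 ratio was 1.06, 0.64, 0.98 and 0.93. In the 9 later pools it ran from -0.43 to 0.32, so the sets did not overlap. Tested alone, libraries 1 to 10 gave 73 members higher and 0 lower (median 0.96; 19.1% of all genes higher), and libraries 11 to 30 gave 15 higher and 2 lower (median 0.13; 13.5% of all genes higher, 13% lower). With numbering as a term in the model, 60 were higher and 3 lower, beside 22.3% and 24% of all genes. That term has the same value for both fractions of a pool, so it cannot take up a gap in enrichment between the sets. Within intact mice the gap was also there: the 3 intact pools of the later set had medians of 0.10, 0.26 and 0.32. Intact pools numbered 1 to 10 held 6 or 7 mice each and the later ones 5, and the part of pool size was not tested. The labels do not say what the numbers stand for, and the part of the numbering in the results was not tested further.

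A further measure moved with the enrichment: the annotated exonic length of the gene, which can differ from that of the transcript expressed. Atp5g1 and Ndufb2, for example, have 4912 and 4375 exonic bases, and with the length trend removed they were at log2 0.61 and 0.59. The tested members had a median exonic length of 971 bases, against 3192.5 for all genes tested, and enrichment fell with length both across the 83 members (Spearman's rho -0.45) and across 16446 genes (rho -0.24), as a description only, since genes share libraries. Per pool, rho over all genes ran from -0.42 to -0.31 in libraries 1 to 10 and from -0.26 to 0.12 in the later ones. Across the members it ran from -0.54 to -0.44 in libraries 1 to 10 and from -0.56 (orchidectomized males, replicate 2) to 0.34 (ovariectomized females, replicate 0) in the later ones, so here the sets overlapped. Among members under 600 bases 13 of 16 were higher, beside 38.6% of all genes of that length. From 600 to under 1200 bases 28 of 37 were higher, beside 47.7%, and from 1200 bases 15 of 30, beside 19.1%. When each library's trend on length was removed, 32 members were higher and 11 lower, beside 23.2% and 16.7% of all genes, with a median of 0.07 beside 0.01 for all genes. Of the 56 higher before, 31 stayed higher and 2, Cox5a (log2 -0.17) and Ndufb10 (log2 -0.11), turned lower. The other 23 were not called; they include Cox7b2 (log2 0.56), Cox4i1 (0.05), Cox6b1 (0.09), Uqcr10 (-0.0046), Atp5g3 (-0.077) and Sdhb (-0.026).

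**Figure D2:**
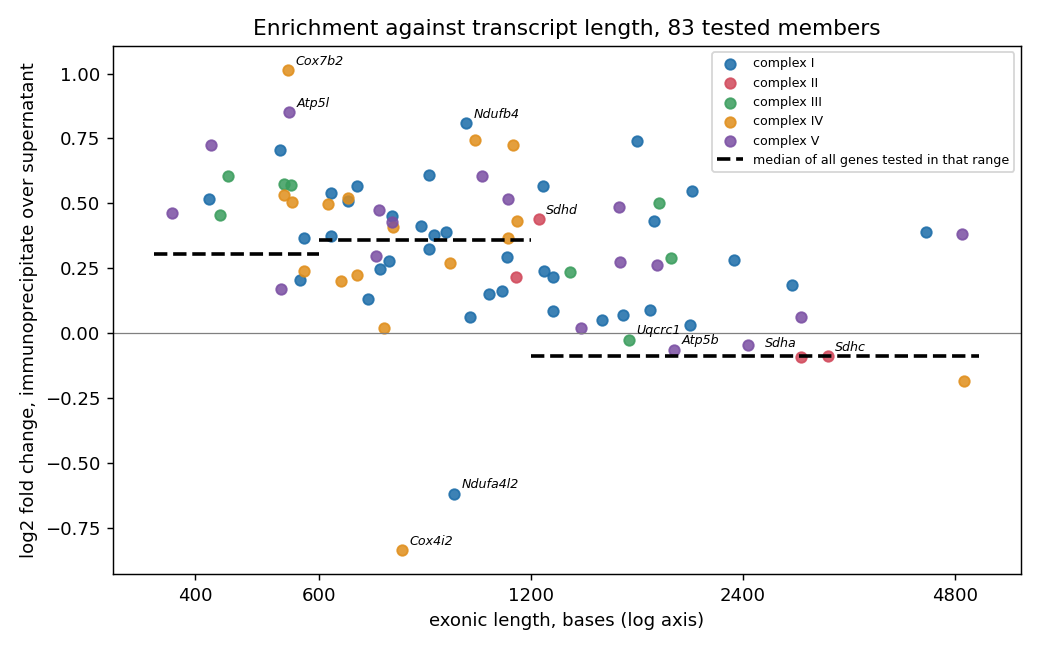
Log2 fold change of immunoprecipitate over supernatant against exonic length (log axis) for the 83 tested members, coloured by complex, with the median of all genes tested in 3 length ranges as dashed lines. Shorter members lie higher, and the median of all genes is 0.30 under 600 bases, 0.36 from 600 to under 1200 and -0.09 from 1200.

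A set of 15 members was higher in the immunoprecipitate with all libraries, in libraries 1 to 10 alone, in libraries 11 to 30 alone and with the length trend removed: Ndufa4, Ndufa6, Ndufa7, Ndufb4, Ndufs4, Ndufv2, Sdhd, Uqcrb, Uqcrc2, Cox7a2l, Cox7b, Cox7c, Atp5e, Atp5l and Atp5s. They come from all 5 complexes, and in libraries 11 to 30 their log2 fold changes ran from 0.21 (Ndufv2 and Uqcrc2) to 0.49 (Atp5l). The set was formed after its values were seen, and it has no test of its own. It holds every member called higher in libraries 11 to 30, so the other criteria removed none and are not separate support. All libraries together also contain both subsets. The share of all genes that met every criterion was not counted.

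**Figure D3:**
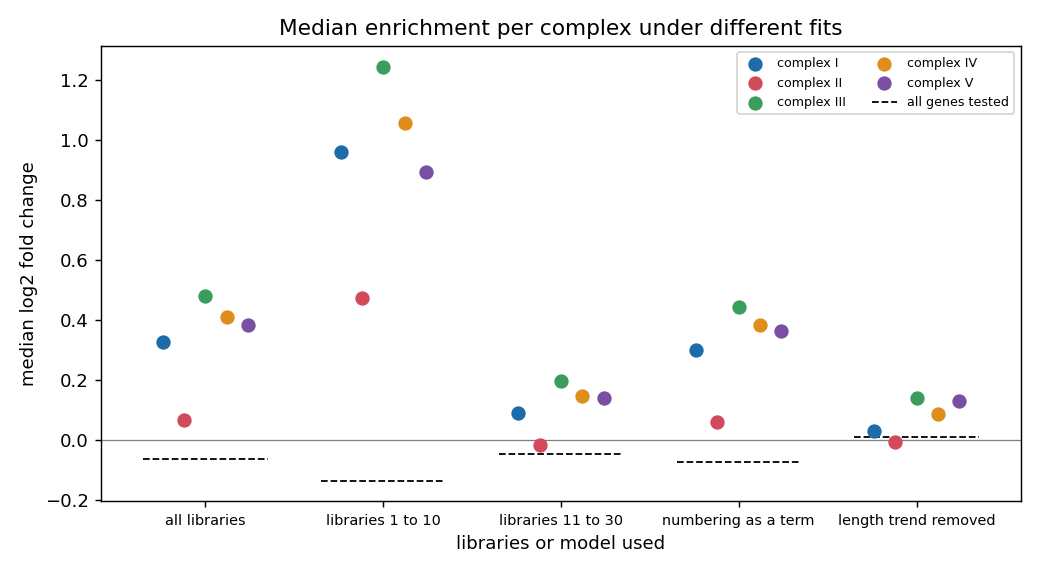
Median log2 fold change of immunoprecipitate over supernatant per complex (points) and of all genes tested (dashed lines), with all libraries, libraries 1 to 10, libraries 11 to 30, numbering as a model term, and the length trend removed. Complex III is highest and complex II lowest in each column, and every complex is within 0.14 of 0 on the log2 scale once the length trend is removed. Both fractions of a pool share the numbering term, so it cannot take up a gap in enrichment between the sets.

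Complex I, NADH dehydrogenase, has a catalytic core of 7 nuclear-encoded subunits and a shell of accessory ones. The grouping by role, here and in the other complexes, was made after the values were seen and is a description with no test of its own. Of the core, only Ndufv2, an iron-sulfur subunit of the NADH-binding arm, was called higher (0.43 ± 0.08 SE, adjusted p = 7.05e-05), and the median over the 7 was 0.09. Of the 28 accessory subunits 22 were higher, with a median of 0.38. The core genes had the longer exonic lengths, with a median of 1623 bases against 868, and with the length trend removed the medians were -0.04 and 0.05. In libraries 1 to 10 alone 6 of 7 core and 28 of 28 accessory subunits were higher, and in libraries 11 to 30 alone 1 of 7 and 4 of 28.

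Ndufb4, an accessory subunit of the membrane arm, ran from 202 to 567 CPM (median 268) in the 13 immunoprecipitates and from 141 to 309 CPM (median 164) in the 13 supernatants. The ranges overlapped, but the immunoprecipitate was higher in 12 of 13 pools, the exception being ovariectomized females, replicate 0. Its fold was 1.75 (log2 0.81 ± 0.14 SE, adjusted p = 3.73e-05). Ndufs4, a subunit needed for a stable NADH-binding arm and the gene of a mouse model of Leigh syndrome, ran from 183 to 384 CPM (median 214) in immunoprecipitates and from 114 to 199 CPM (median 142) in supernatants. It was higher in 13 of 13 pools, which 6.82% of all genes tested were, by 1.67-fold (log2 0.74 ± 0.10 SE, adjusted p = 2.74e-06). Ndufa7, an accessory subunit of the matrix arm, followed at log2 0.70.

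At the other end of complex I, Ndufa10, an accessory subunit of the membrane arm with a kinase-like fold, had nearly equal medians of 245 CPM in immunoprecipitates and 235 CPM in supernatants (log2 0.03 ± 0.06 SE, adjusted p = 0.706). Ndufa4l2 stayed below 10 CPM in every library: 1.69 to 4.82 CPM (median 3.39) in immunoprecipitates and 3.75 to 9.26 CPM (median 4.6) in supernatants. It was lower in 12 of 13 immunoprecipitates, at log2 -0.62 ± 0.19 SE (adjusted p = 0.013). Its relative Ndufa4 ran from 472 to 1167 CPM in immunoprecipitates and rose by log2 0.54 ± 0.11 SE (adjusted p = 0.000303).

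Complex II, succinate dehydrogenase, split within its 4 subunits. Sdhd, a membrane anchor, ran from 318 to 587 CPM (median 417) in immunoprecipitates and from 261 to 371 CPM (median 297) in supernatants. It was higher in 13 of 13 pools (log2 0.44 ± 0.07 SE, adjusted p = 2.6e-05). Sdhb, the iron-sulfur subunit, was higher in 12 of 13 pools (log2 0.22 ± 0.07 SE, adjusted p = 0.0135), with medians of 548 and 451 CPM. Sdha, the flavoprotein that oxidises succinate, ran from 495 to 710 CPM (median 573) in immunoprecipitates and from 503 to 721 CPM (median 631) in supernatants. It was higher in 2 of 13 pools and was not called (log2 -0.09 ± 0.07 SE, adjusted p = 0.311). Sdhc, the other anchor, was higher in 4 of 13 pools and was not called either (log2 -0.09 ± 0.06 SE, adjusted p = 0.25).

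Sdhc also changed sign with the libraries used: it was called higher in libraries 1 to 10 (log2 0.26, adjusted p = 0.0274) and lower in libraries 11 to 30 (log2 -0.21, adjusted p = 0.0202). Sdha and Sdhc have the longer exonic lengths of complex II, 2900 and 3171 bases, and Sdhd and Sdhb the shorter, 1231 and 1142. With the length trend removed Sdhd alone of the 4 was called, at log2 0.21. Pool by pool, the median of complex II was the lowest of the 5 complexes in 10 of 13 pools, and that of complex III the highest in 8 of 13, including 4 of 4 pools numbered 1 to 10.

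**Figure D4:**
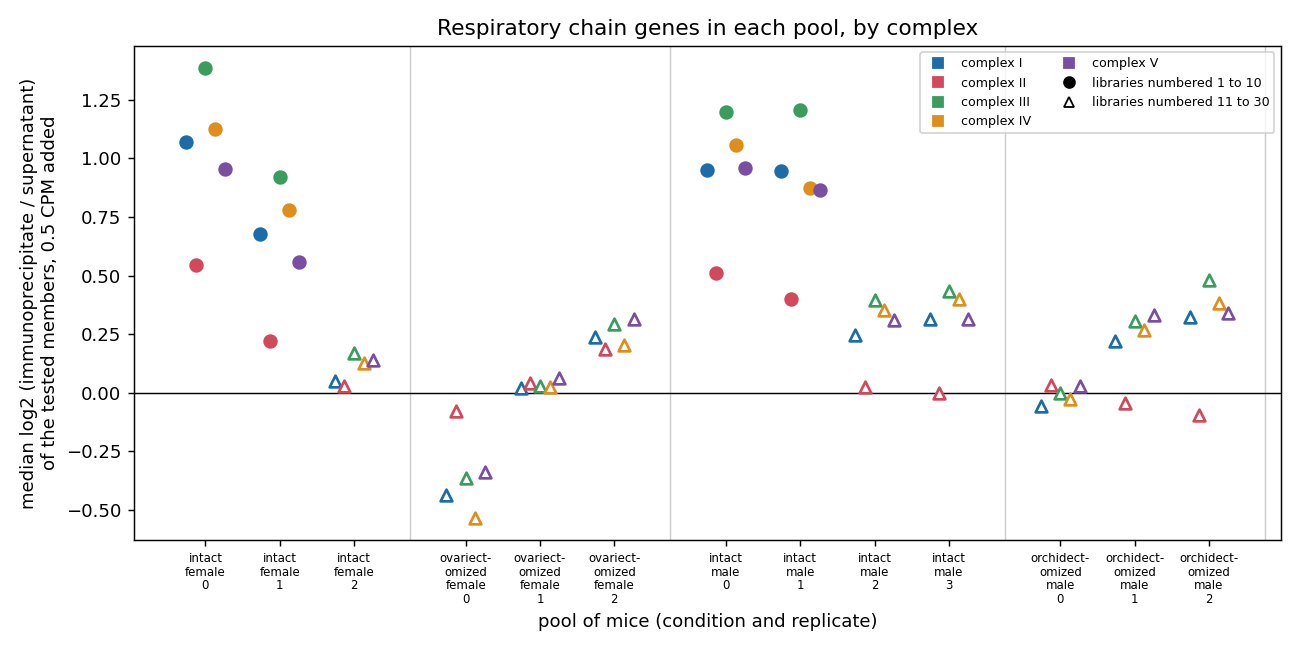
Median log2 ratio of immunoprecipitate to supernatant over the tested members of each complex (y axis, 0.5 CPM added to each level) in each of 13 pools, with filled circles for libraries numbered 1 to 10 and open triangles for 11 to 30. The filled pools lie above the open ones in each of the 5 complexes, ovariectomized females replicate 0 lies lowest in complexes I, III, IV and V, and complex II lies below the others in 10 pools.

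Complex III, the cytochrome bc1 complex, showed the same order of small before large subunits. Its 5 small subunits were all called higher, with a median of 0.57 and a median length of 535 bases. In libraries 11 to 30 alone 1 of these 5 was called (median 0.24), and with the length trend removed 4 were, with a median of 0.14. Among them Uqcr11 ran from 195 to 603 CPM (median 257) in immunoprecipitates and from 153 to 382 CPM (median 187) in supernatants, higher in 11 of 13 pools (log2 0.61 ± 0.15 SE, adjusted p = 0.00165). Uqcrb, which contacts the ubiquinone site, and Uqcrh, the hinge protein, rose by log2 0.57 each. The Rieske iron-sulfur protein Uqcrfs1 rose by log2 0.24 ± 0.05 SE (adjusted p = 0.00106), and the core protein Uqcrc2 was higher in 13 of 13 pools (log2 0.29). Uqcrc1, the other core protein, had medians of 573 and 574 CPM and was not called (log2 -0.02 ± 0.06 SE, adjusted p = 0.767).

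Complex IV, cytochrome c oxidase, draws its catalytic subunits from mitochondrial DNA, and the members are the nuclear subunits around them. Cox4i1, the ubiquitous subunit 4, had the highest level per length of all members in both fractions, 1886 CPM per kilobase in immunoprecipitates and 1386 in supernatants. It ran from 995 to 2318 CPM (median 1200) in immunoprecipitates and from 864 to 1582 CPM (median 1008) in supernatants and rose by log2 0.41 ± 0.10 SE (adjusted p = 0.00263). Its lung-type paralog Cox4i2 ran from 0.238 to 2.28 CPM and from 1.03 to 2.91 CPM, and fell by 0.84 on the log2 scale (adjusted p = 0.0147); the immunoprecipitate was higher in 2 of 13 pools. Cox7b and Cox7c, small subunits near the surface of the enzyme, rose by log2 0.75 and 0.73, and Cox7a2l, which joins complexes III and IV into supercomplexes, was higher in 13 of 13 pools (log2 0.43 ± 0.08 SE, adjusted p = 0.000147).

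The forms known from heart and skeletal muscle, Cox6a2 and Cox7a1, and the testis forms Cox6b2 and Cox7b2 stayed below 10 CPM in every library. Cox7b2 had the largest log2 fold change of all members, 1.01 ± 0.31 SE (adjusted p = 0.00958), at 0.585 to 6.32 CPM (median 1.32) in immunoprecipitates and 0.389 to 1.2 CPM (median 0.772) in supernatants, and 3 of the 4 immunoprecipitates numbered 1 to 10 held its highest levels. With the pool as a block Cox7b2 was no longer called (adjusted p = 0.0609), nor was Cox7a1 (log2 0.53 against 0.52 with the block, adjusted p = 0.0565). Among the common forms Cox6b1, Cox7a2 and Cox8a rose by log2 0.50, 0.52 and 0.50, and Cox6a1 was not called (log2 0.24 ± 0.11 SE, adjusted p = 0.0857). Cox6a2 (log2 0.23, adjusted p = 0.279) and Cox6b2 (log2 0.02, adjusted p = 0.946) were not called. Cox5a rose by log2 0.20, while Cox5b fell just outside the threshold (log2 0.27 ± 0.11 SE, adjusted p = 0.0519).

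Complex V, the ATP synthase, showed an order of small before large subunits only in part. Atp5o of the peripheral stalk, at 530 exonic bases, was not called higher, and it was lower with the length trend removed (log2 -0.24). Atp5l, subunit g of the membrane part, ran from 270 to 744 CPM (median 383) in immunoprecipitates and from 187 to 372 CPM (median 222) in supernatants. It was higher in 13 of 13 pools, by 1.80-fold (log2 0.85 ± 0.12 SE, adjusted p = 6.23e-06). The 3 small membrane subunits Atp5l, Atp5j2 and Atp5k were all called, at log2 0.85, 0.61 and 0.46, with a median length of 544 bases. In libraries 11 to 30 alone 1 of them was called (median 0.29), and with the length trend removed 2 were (median 0.31), while Atp5k was at -0.017. The 3 genes for the c ring, the rotor that protons turn, were called with all libraries (Atp5g1 log2 0.38, Atp5g2 0.47, Atp5g3 0.30), and the mature protein made from them is the same, since they differ in their import sequences. In libraries 11 to 30 alone 0 of these 3 were called (median 0.15), and with the length trend removed 2 were, Atp5g3 being at -0.077. Of the peripheral stalk 3 of 4 subunits were called with all libraries and 0 of 4 in libraries 11 to 30 (median 0.15).

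In the F1 part, where ATP is made, 2 of 5 subunits were called: Atp5e (log2 0.72 ± 0.14 SE) and Atp5c1 (log2 0.26 ± 0.07 SE). Atp5b, the catalytic beta subunit and the most counted member, ran from 1734 to 2501 CPM (median 2044) in immunoprecipitates and from 1706 to 2463 CPM (median 2164) in supernatants, higher in 7 of 13 pools and not called (log2 -0.06 ± 0.07 SE, adjusted p = 0.458). Atp5a1, the alpha subunit, was likewise not called (log2 0.06, adjusted p = 0.447). Atp5s, an assembly factor by its current name, was the only member whose 13 immunoprecipitates, at 49.5 to 71.6 CPM, all lay above all 13 supernatants, at 38.5 to 48.1 CPM; 2.15% of all genes tested did so and 2.4% lay below. Its log2 fold change was 0.48 ± 0.06 SE (adjusted p = 1.99e-06). Atp5sl was not called (log2 -0.04, adjusted p = 0.642).

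Genes around the chain were taken from lists of named pathways, to be read against 21.3% of all genes tested higher and 21.6% lower. Of 9 electron carriers and subunits with other names 8 were higher (median 0.50), among them Etfdh, which passes electrons from fat oxidation to ubiquinone (log2 0.86), Usmg5, a small subunit of ATP synthase (log2 0.80), and cytochrome c, Cycs (log2 0.25). Assembly factors were higher in 8 of 14 for complex I, with 1 lower (Acad9, log2 -0.28), and in 19 of 33 for complexes II to V, with medians of 0.24 and 0.24. Enzymes of pyruvate dehydrogenase and the tricarboxylic acid cycle gave 7 higher and 3 lower of 18 (median 0.09), with Suclg1 at log2 0.46 and Ogdh at -0.58. Carriers, porins and import genes gave 11 higher and 4 lower of 22, with Timm8b at log2 0.91 and Tomm70a at -0.45. Regulators of mitochondrial biogenesis gave 2 higher and 2 lower of 13, Tfb1m at log2 0.53 and Esrra, the gene of ERR alpha, at -0.64. Glycolysis gave 1 higher and 5 lower of 17, Ldha at log2 0.28 and Aldoc, the form of aldolase known from astrocytes, at -0.40. In libraries 11 to 30 alone the medians were 0.28 for carriers, 0.10 and 0.10 for both lists of assembly factors, 0.06 for the cycle, 0.04 for import, -0.04 for regulators and -0.13 for glycolysis. With the length trend removed they were 0.35, 0.08 and 0.12, 0.09, 0.10, 0.14 and -0.06 in the same order. The shares of regulators called in either direction, and of the cycle and import genes called lower, were below those of all genes.

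Within the conditions, the main fit on all libraries called members in intact mice only, though the difference between intact and gonadectomized mice was not called. In intact females 49 of 83 members were higher and 0 lower (10.2% of all genes higher, 7.77% lower), with a median of 0.63. In intact males 61 were higher (14.6% of all genes) and 1, Cox4i2, was lower (11.2%), with a median of 0.65. In ovariectomized females 0 were higher and 0 lower (2.97% and 3.31% of all genes), with a median of -0.06, and in orchidectomized males 0 and 0 (5.93% and 4.73%), with a median of 0.18. At an unadjusted p under 0.05 there were 5 and 8 members in these gonadectomized groups, and DESeq2 called 1 in each while limma voom called 0 in each. The intact-only pattern depended on the fit. With the later-numbered libraries alone, a few members were called higher in both gonadectomized groups. In the orchidectomized male libraries fitted alone, some members were called higher and some lower. Their counts are given with the processing settings below, without the share of all genes called.

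The intact counts rest on the libraries numbered 1 to 10. In libraries 11 to 30 alone, intact females, with 1 pool, had 0 members higher (median 0.09) and intact males, with 2 pools, 1 (median 0.28). Leaving out an intact female immunoprecipitate, replicate 0 or 1, left 7 or 25 members higher, and leaving out supernatant 0 or 1 left 17 or 22. Without the intact male immunoprecipitate 1, 40 members were higher in intact males. Fitted on the intact female libraries alone, 0 members were higher, with the same median of 0.63, and on the intact male libraries alone 46. The counts in these smaller fits are not set beside the share of all genes called in them, so they do not single out the members. With the length trend removed the counts were 18 higher and 1 lower in intact females, beside 9.43% and 4.6% of all genes, and 21 higher and 4 lower in intact males, beside 13.8% and 7.13%.

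The difference in enrichment itself, tested as an interaction, was called for 0 of 83 members in each of 4 contrasts by edgeR, DESeq2 and limma voom. For ovariectomized minus intact females (0% of all genes called) the members' median was -0.75, beside 0.02 for all genes, and 54 had an unadjusted p under 0.05. Ndufa3, an accessory subunit of complex I, had the lowest p (log2 -1.19 ± 0.37 SE, adjusted p = 0.664). Without the intact female immunoprecipitate replicate 2, 20 members were called, a count not set beside the share of all genes called in that fit. For orchidectomized minus intact males (0% of all genes) the median was -0.51 with 17 members at an unadjusted p under 0.05, and Atp5sl had the lowest p (log2 -0.57 ± 0.19 SE, adjusted p = 0.593). The contrasts of males with females gave medians of 0.01 in intact mice (0% of all genes higher, 0.00598% lower; lowest p for Ndufv1, log2 0.25, adjusted p = 1) and 0.23 in gonadectomized mice (0%; lowest p for Cox6a2, log2 1.05, adjusted p = 0.921), with 0 and 1 members at an unadjusted p under 0.05.

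**Figure D5:**
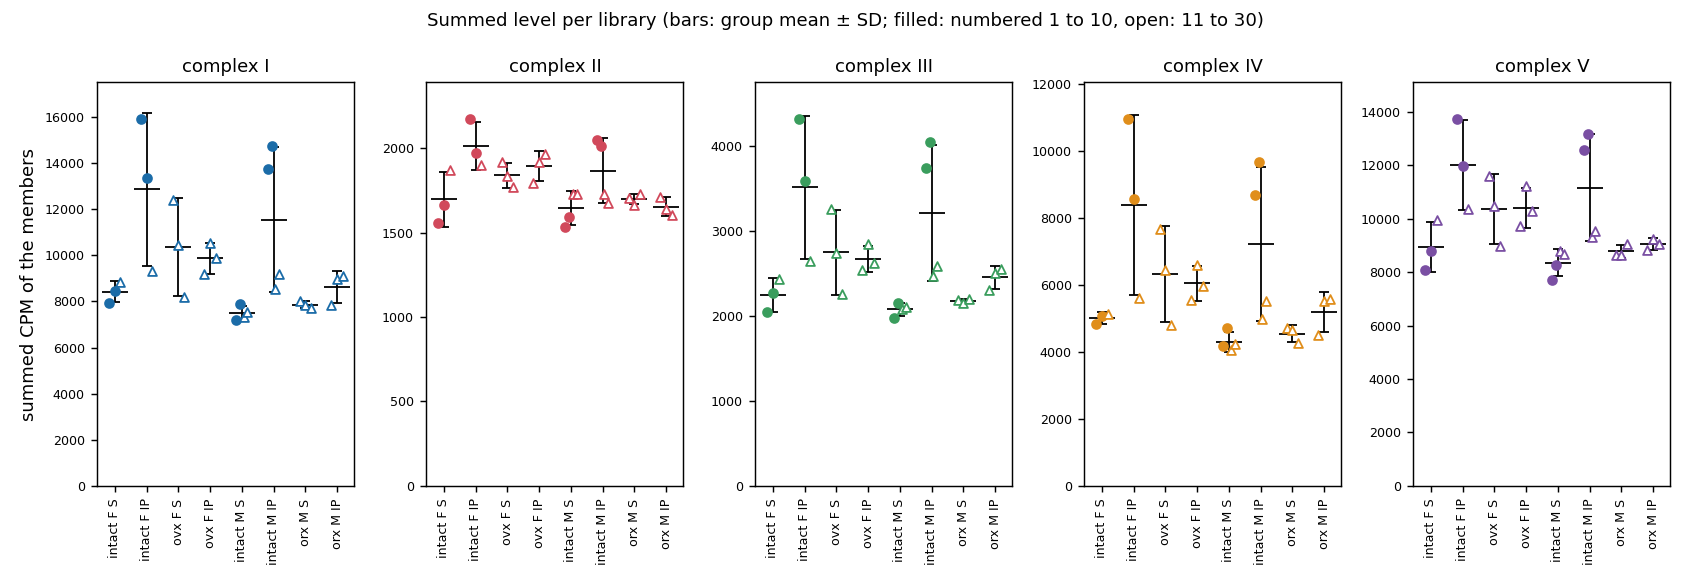
Summed CPM of the members of each complex in each of 26 libraries, by group (F female, M male, ovx ovariectomized, orx orchidectomized, S supernatant, IP immunoprecipitate), with the group mean ± SD as bars. The filled immunoprecipitates numbered 1 to 10 stand above every other library in each of the 5 complexes, by little in complex II, and an ovariectomized female supernatant (replicate 0) is the highest supernatant in complexes I to V.

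Levels were then compared between conditions within each fraction, to ask whether sex or gonadectomy moved the members. The summed level of all members was 38787 ± 8651 CPM (SD, n = 3) in immunoprecipitates of intact females, 30880 ± 2168 (n = 3) in ovariectomized females, 34996 ± 8449 (n = 4) in intact males and 26968 ± 1554 (n = 3) in orchidectomized males. Immunoprecipitates numbered 1 to 10 held 39441 to 47092 CPM and the later ones 25174 to 33126 CPM. In supernatants the sums were 26316 ± 1895, 31614 ± 5428, 23856 ± 913 and 25060 ± 163 CPM in the same order of groups. Ovariectomized females spread most, from 26018 to 36857 CPM, and orchidectomized males least.

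For gonadectomy, 0 of 83 members were called in any of 4 comparisons by edgeR, DESeq2 or limma voom. In immunoprecipitates the members' median was -0.44 in females (0% of all genes called; 11 members at an unadjusted p under 0.05) and -0.43 in males (0%; 15 members). These medians moved with the numbering: in libraries 11 to 30 alone they were 0.11 and -0.03, and with numbering as a term 0.09 and -0.03. Ndufa3 had the lowest p in females, with 97.3, 167 and 221 CPM in intact mice against 90.9, 91.0 and 99.3 CPM after ovariectomy (log2 -0.79 ± 0.30 SE, adjusted p = 0.994), and the ranges overlapped; 0 members lay higher and 1 lower without overlap, beside 3.74% and 3.42% of all genes. In males Atp5sl was lowest, with 111, 116, 118 and 150 CPM in intact mice and 81.1, 89.0 and 90.3 CPM after orchidectomy, which did not overlap (log2 -0.51 ± 0.16 SE, adjusted p = 0.525); 9 members lay lower without overlap, beside 4.78% of all genes, and 1 higher, beside 4.74%.

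In supernatants ovariectomized females had a median of 0.36 over intact ones (0.00611% of all genes higher), with 57 members at an unadjusted p under 0.05. Cox6c, a small subunit of complex IV, had the lowest p: 368, 374 and 381 CPM in intact mice and 383, 513 and 600 CPM after ovariectomy (log2 0.45 ± 0.14 SE, adjusted p = 0.653). In all, 3 members lay higher without overlap and 0 lower, beside 2.23% and 3.87% of all genes. The ovariectomized replicate 2 lay next to the intact values, and without it 47 members were called. That count is not set beside the share of all genes called in the same fit. Orchidectomized minus intact males gave a median of 0.06 (0% of all genes called) with 0 members at an unadjusted p under 0.05 and the lowest p for Atp5g3 (log2 0.13, adjusted p = 1). There 4 members lay higher and 0 lower without overlap, beside 3.07% and 3.76% of all genes.

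For sex, 0 of 83 members were called by edgeR in any of 4 comparisons. In supernatants of gonadectomized mice, males were lower with a median of -0.47 (0.0244% of all genes higher, 0.0183% lower), and 62 members had an unadjusted p under 0.05. The ovariectomized pools held 7 mice each and the orchidectomized pools 5, and the part of pool size was not tested. Ndufa12, an accessory subunit of complex I, had the lowest p: 226, 233 and 249 CPM in orchidectomized males and 262, 349 and 392 CPM in ovariectomized females, which did not overlap (log2 -0.52 ± 0.12 SE, adjusted p = 0.108). In all, 38 members were lower in males without overlap, beside 12.2% of all genes (13.9% higher). DESeq2 called 53 members lower and the model with numbering as a term 34, while limma voom called 0. Without the ovariectomized replicate 2, 61 were called. These counts are not set beside the share of all genes called in the same fits, so they do not single out the members.

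The other sex comparisons were smaller. In supernatants of intact mice the median was -0.18 (0.0244% of all genes higher, 0.0183% lower), with 0 members at an unadjusted p under 0.05, but 40 members lay lower in males without overlap, beside 7.04% of all genes. Ndufc2 of complex I had the lowest p, at 194, 195, 199 and 222 CPM in males and 238, 240 and 240 CPM in females (log2 -0.22 ± 0.11 SE, adjusted p = 0.861). In immunoprecipitates males had medians of -0.20 in intact mice (0.0186% of all genes higher, 0.00619% lower; lowest p for Sdhb, log2 -0.24, adjusted p = 0.991) and -0.17 in gonadectomized mice (0.0186% higher, 0% lower; lowest p for Ndufs3, log2 -0.46, adjusted p = 0.551). In intact mice 1 member lay higher and 0 lower without overlap, beside 2.12% and 1.76% of all genes. In gonadectomized mice 25 lay lower in males without overlap, beside 10.3% of all genes, and 7 and 0 members had an unadjusted p under 0.05 in gonadectomized and intact mice. DESeq2 and limma voom called 0 members in these 3 comparisons. The comparisons of sex and of gonadectomy share groups, so their values are not independent of each other.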

How the data were processed

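The authors deposited 1 table of estimated counts per gene and library. The build was mm10, and the tools named are Cuffdiff 2.1.1, Cufflinks, Bowtie2 2.1.0, TopHat2 2.0.9 and FastQC, per the submitters' processing notes; for the annotation, and for multiply mapped reads, the treatment is not given in the sources used here. Members with close copies are therefore uncertain. So are the 27 members that share 50 or more exonic bases with another gene in GENCODE M21, since the kit does not mark strand.

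Counts were rounded and tested with edgeR 4.0.16 in R 4.3.3 (TMM, filterByExpr with a minimum count of 10 and total of 15, quasi-likelihood test, Benjamini-Hochberg adjustment over all genes tested). Enrichment was fitted on all 26 libraries with 1 mean per group, and conditions were compared within each fraction. The steps were tested on simulated counts that held no pool pairing, library numbering or length trend, so that test cannot speak to those features. Alternatives used DESeq2 1.42.0 and limma 3.58.1, size factors, no filter, the pool or replicate number as a block, library numbering, a trend on exonic length (known for 97.9% of genes) and each library left out. Ratios per pool had 0.5 CPM added.

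Immunoprecipitate and supernatant of a pool come from the same mice, so the pool pairs them; their deviations from the group means correlated at 0.014 to 0.17. Between conditions, deviations of libraries with the same replicate number correlated at 0.30 to 0.34 in supernatants of intact males and females, and less elsewhere. Unequal replicate numbers were not compared, and in these supernatants the replicate number also follows the library numbering. The correlation therefore cannot show that replicate numbers pair the samples.

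Named with values were, in each complex, the 3 members with the highest and the 2 with the lowest enrichment, paralog pairs, and the lowest p where no member was called; of other lists, the 2 highest and 2 lowest called genes at most. Others were chosen after their values were seen. The members and lists were chosen with earlier results of these data known. P-values measure the spread between libraries of a group, and the main enrichment fit treats both fractions of a pool as separate libraries. Reads carried no molecular identifiers, so copies made in amplification could be counted too.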

Additional observations from a re-analysis of the deposited data

Results flagged for a closer look

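Among 89 sets of 4 intact male libraries or pools checked (members named in the text, sums and medians per complex), 6 had 1 value far from the other 3; chance flags about 1 in 20. In immunoprecipitates Cox6b2 was at 1.65 CPM in replicate 2 and at 5.13 to 5.6 CPM in the others, a gap of 0.882 of the range, and Cox7b2 at 2.93 CPM in replicate 0 beside 1.08 to 1.32 CPM (0.867). In supernatants Atp5g3 was at 676 CPM in replicate 0 beside 731 to 740 CPM (0.864), and Cox7a2l at 166 CPM in replicate 0 beside 186 to 189 CPM (0.841). Cox4i2 was at 1.66 CPM in replicate 2 beside 1.19 to 1.26 CPM (0.853), and Ndufa4l2 at 6.09 CPM in replicate 1 beside 3.92 to 4.18 CPM (0.883).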

How the results depend on the processing

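Over all conditions the count of members higher (56) was within 1.5 times under DESeq2 (57), limma voom (56) and no filter (56). The same held for the size factors of DESeq2 in edgeR (57) and the pool as a replicate block (54). It also held without 3 libraries that stand apart, chosen after seeing the data (55). Voom moved the median of all genes from -0.06 to -0.16. Both fractions of a pool share the numbering term, which cannot take up a gap in enrichment, and with it the count higher was 60. It was 15 in libraries 11 to 30 and 32, with 11 lower, with the length trend removed; 0 were lower in libraries 1 to 10 and 1 without tissue-restricted paralogs. Left-out libraries gave 52 to 61 higher and 3 to 3 lower. In intact females the count higher was 0 in libraries 11 to 30 and in the fit on those groups only, 18 with 1 lower with the length trend removed, 25 without the 3 libraries, and 7 to 64 with a library left out. In intact males it was 1 in libraries 11 to 30 and 21 with 4 lower with the length trend removed, and 40 to 66 with a library left out; 0 were lower under the replicate block, in libraries 1 to 10, in libraries 11 to 30 and on those groups only, and 0 to 1 with a library left out. In ovariectomized females 1 was higher under DESeq2 and with the numbering term, 3 in libraries 11 to 30, and 1 with 4 lower with the length trend removed. In orchidectomized males 1 was higher under DESeq2 and without the 3 libraries, 3 with the numbering term, 4 in libraries 11 to 30, 2 with 2 lower with the length trend removed, 9 with 2 lower on those groups only, and 0 to 1 with a library left out. Called members went from 0 to 53 (DESeq2) and 34 (numbering term) for orchidectomized males minus ovariectomized females in supernatant, and with a library left out from 0 to 61 there, 0 to 47 for ovariectomized minus intact females in supernatant and 0 to 20 for their difference in enrichment. The shares of all genes called in those fits are not set beside these counts, nor, in this section, beside the counts within single conditions. Neither set of counts singles out the members. The replicate block changed no other count by over 1.5 times.

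Signs changed for members near 0. Cox6b2 (0.02) was at -0.0084 under voom, -0.035 with the replicate block, -0.22 in libraries 11 to 30, -0.34 with the length trend removed and -0.11 to 0.10 with a library left out. In libraries 11 to 30 Ndufa10 was at -0.026. In libraries 1 to 10 Atp5b was at 0.10, Atp5sl at 0.30, Cox4nb at 0.020, Sdhc at 0.26 and Uqcrc1 at 0.20. With the length trend removed Atp5g3 was at -0.077, Cox4nb at 0.034, Cox6a1 at -0.17, Cox6a2 at -0.15, Ndufa10 at -0.0038, Sdhb at -0.026 and Sdhc at 0.010. Uqcrc1 ran from -0.059 to 0.0088 with a library left out. The causes were not tested. Depth limits Cox4i2, Cox6b2, Cox7b2 and Ndufa4l2, all below 10 CPM, and in the intact females of libraries 11 to 30, with 1 pool, spread is taken from the other groups.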
